A study of Mus musculus with 10 samples.

Results

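The genes described here are 34 members of the glycolysis and hypoxia response group, taken by symbol from a fixed list out of 28189 gene symbols in the tables. They were followed in mouse trophoblast stem cells (TSCs), which model the outer layer of the blastocyst in culture, and in cells derived from them. All cells had a C57BL/6J background and all libraries were made with CEL-Seq2, which tags transcripts near their 3′ end and counts them by unique molecular identifiers (UMIs). Levels are given as CPM, a gene's parts in 1000000 of the library total, without mitochondrial genes in single cells.

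Each single-cell group had 1 library, made from a sorted plate of 384 wells, 4 plates in all. The TSC library held cells named F4, grown in Tx medium. The differentiated TSC library held cells also named F4, kept for 6 days without Fgf4, Tgfb or heparin. The pTSC library held newly derived cells in LT21 medium, and the blastoid pTSC library held cells of line pTS1 recovered from blastoids, blastocyst-like structures grown from stem cells. Cells in all 4 of these libraries carried a GFP cassette integrated at random. Bulk RNA came from TSCs whose Cdx2 coding sequence was joined to an eGFP knock-in, sorted into CDX2-high (3 libraries) and CDX2-low (3 libraries) cells. The labels do not name separate cultures, so a bulk p-value measures only the spread between these libraries.

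Glycolysis breaks glucose down to pyruvate, and lactate dehydrogenase turns pyruvate into lactate where oxygen or mitochondrial capacity is limiting. Under low oxygen the prolyl hydroxylases Egln1 and Egln3 no longer mark HIF1A for destruction, and the stabilised factor switches on glycolytic enzymes, lactate export, mitophagy receptors and its own hydroxylases. In the early embryo and placenta, trophoblast lives at low oxygen and is known for strong glucose use.

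After removal of wells with under 2000 UMIs outside mitochondrial genes, 318 TSC, 318 differentiated, 299 pTSC and 257 blastoid pTSC cells were left, with 5388767, 3254559, 2437481 and 2315931 UMIs. The wells of the 4 plates carry the same 384 well numbers, which name positions and not shared cells. Bulk libraries held 116659 to 272030 counts, and every CDX2-high library was deeper than every CDX2-low one. The 10 trophoblast markers fixed for the label were all detected in each single-cell library, and 9 or 10 of them in each bulk library. The 6 epiblast markers summed to 573 (blastoid pTSC) to 1102 CPM (pTSC) in single cells and 173 to 303 in bulk, mostly Utf1 and Zfp42, with Nanog at 0 in all 10 libraries, and their part in the results was not tested. Fibroblast markers summed to 9.28 (TSC) to 44.7 CPM (pTSC) in single cells, with Dcn at 0. Cdx2 itself had at most 18.4 CPM in any bulk library, too few to check the sort. The libraries named TSC and differentiated TSC differed in sex-linked RNA, with 0 against 193 UMIs of 4 Y-linked genes and 1515 against 14 UMIs of Xist, although both are labelled F4. What this does to a comparison of these libraries cannot be told apart from differentiation. The pTSC library, with 1 Y-linked UMI and 474 of Xist, differs from the differentiated one in the same way, so ratios to pTSC give a second undifferentiated library but carry the same difference.

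The counts reached the members unevenly. In bulk, 15 of the 34 passed the filter on low counts and were tested, 15 had at least 10 counts but were not tested, and 4 had fewer (Car9, Pfkfb3, Ankrd37 and Eno1). In single cells 22 members had at least 10 UMIs in each of the 3 main comparisons, and 8 stayed under 10 in every one: Pfkm, Eno2, Bnip3l, Vegfa, Ankrd37, P4ha2, Car9 and Mxi1. Vegfa, which encodes an angiogenic factor induced by HIF, had 1 UMI in all 1192 cells, and Car9, a carbonic anhydrase often used as a hypoxia marker, had 0. With 3 counts over the library taken as the limit of a 0, such a count allows up to 0.557 CPM in the TSC library and up to 1.30 in the blastoid library.

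The promoters of members that carry the results are shown first. RefSeq (GRCm38.p6) gave 49 promoters for 33 of the 34 members. The core of the hypoxia response element was searched as ACGTG or GCGTG on both strands in the 250 bases before each start. The 2 patterns have the same last 4 letters, and matches on opposite strands can overlap. Bnip3 is shown because its level differed 2.75-fold between cultured and blastoid pTSCs, Slc16a1 because its level was uneven between cells, and Hk2 because it is the first enzyme of the pathway and was lower in the differentiated library. Each runs 5′ to 3′ on the gene's strand, and capitals mark the matches: Bnip3 at chr7:138909507-138909756 (minus strand), Slc16a1 at chr3:104638414-104638663 (plus strand) and Hk2 at chr6:82774455-82774704 (minus strand).
Bnip3: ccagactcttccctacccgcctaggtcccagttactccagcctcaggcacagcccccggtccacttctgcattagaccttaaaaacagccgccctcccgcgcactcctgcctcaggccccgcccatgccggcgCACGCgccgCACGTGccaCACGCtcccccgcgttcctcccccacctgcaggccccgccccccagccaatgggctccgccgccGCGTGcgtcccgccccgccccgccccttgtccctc
Slc16a1: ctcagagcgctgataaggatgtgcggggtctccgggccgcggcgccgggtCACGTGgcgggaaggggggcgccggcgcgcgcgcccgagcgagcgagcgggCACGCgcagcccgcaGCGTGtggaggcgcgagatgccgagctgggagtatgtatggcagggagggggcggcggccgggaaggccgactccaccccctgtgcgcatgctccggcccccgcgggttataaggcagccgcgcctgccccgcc
Hk2: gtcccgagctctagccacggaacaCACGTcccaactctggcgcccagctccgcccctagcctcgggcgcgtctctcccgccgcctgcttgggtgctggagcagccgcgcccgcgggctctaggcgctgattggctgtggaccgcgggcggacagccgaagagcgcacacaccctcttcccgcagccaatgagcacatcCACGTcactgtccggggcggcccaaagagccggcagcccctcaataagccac

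Bnip3 held 5 matches, Slc16a1 4 and Hk2 2. At least 1 match was present in 39 of the 49 member promoters (79.6%), against 56.9% of 9724 promoters of genes measured in the TSC libraries and 38.6% of all 32851. Some members have several promoters, which can overlap and share a match. Per gene, 30 of 33 members (90.9%) had a match, against 61.8% of 7953 measured genes and 41.5% of all 27025. The list names hypoxia response genes, so a higher share can follow from the choice of list and is no separate result. The member promoters were also richer in G and C, at 61.6% against 60.3% and 53.2%. No match was found in this window for Tpi1 or Gpi1, a statement about these letters only.

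**Figure D1:**
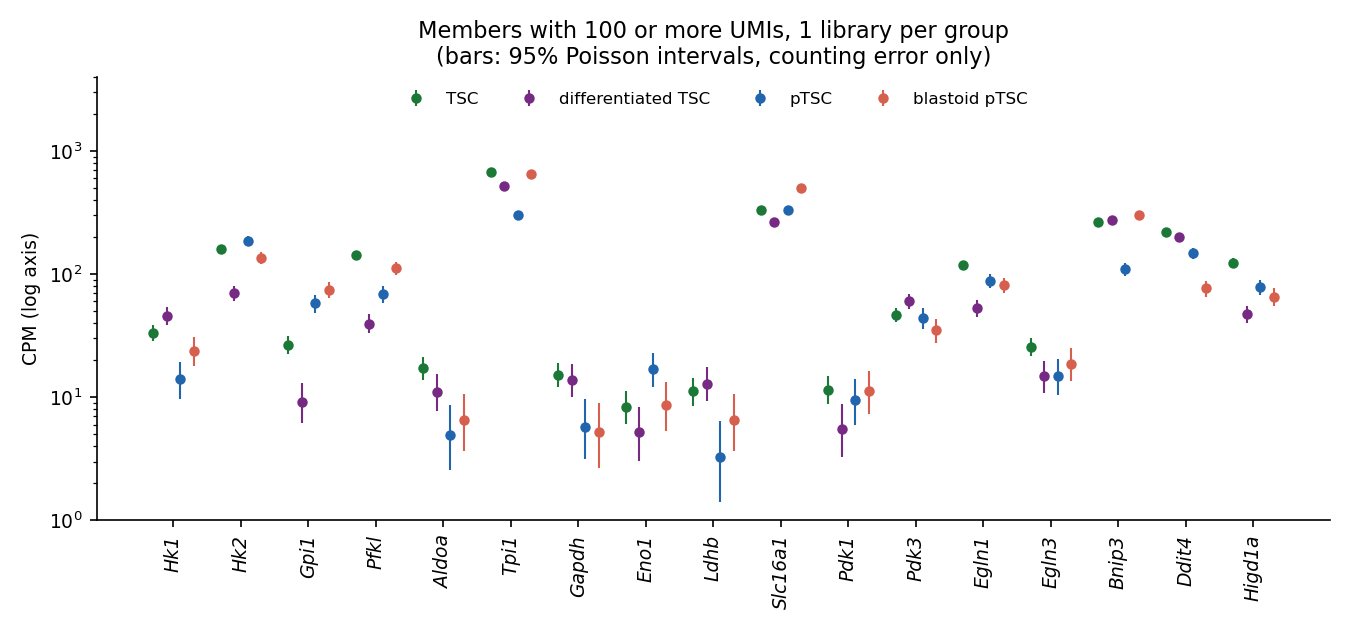
Level of the 17 members with 100 or more UMIs in the 4 single-cell libraries, as CPM on a log axis, with 1 library per group. Points are library values and bars are exact Poisson intervals at 95% that cover counting error only. Tpi1 and Bnip3 were lowest in the pTSC library, at 304 and 110, and Hk2 and Pfkl were lowest in the differentiated library, at 69.7 and 39.6.

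The plot of single-cell levels gives the best counted members side by side. With 1 library per group there is no test, and a gene is called higher or lower when the ratio of CPM is at least 2-fold. Ratios carry exact binomial intervals at 95% for counting error only. All comparisons with TSC share the TSC library, and the pTSC library enters both its own comparison with TSC and that with blastoid pTSC, so these ratios are not independent.

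After 6 days without growth factors, Hk2, Pfkl, Gpi1, Egln1 and Higd1a were at least 2-fold lower than in TSC and Hif1a was higher, while Tpi1, Bnip3 and Ddit4 stayed within 2-fold. With pTSC in place of TSC fewer members were lower and more were higher. Of 26 members with enough UMIs, 10 were at least 2-fold lower and 2 higher, where 18.0% of all genes were lower and 17.5% higher. The median log2 ratio of the members was -0.66, against 0.05 for all 12158 genes measured. Mitochondrial transcripts made up 22.9% of UMIs in the differentiated library and 13.8% in the TSC library, and their part in the result was not tested.

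Hk2, which phosphorylates glucose on entry, had 159 CPM in TSC, 69.7 in differentiated TSC, 186 in pTSC and 135 in blastoid pTSC. It was 2.27-fold lower (1.96 to 2.65) in differentiated cells than in TSC. Pfkl, the liver-type subunit of phosphofructokinase, had 143, 39.6, 68.5 and 112 in the same order and was 3.60-fold lower (2.99 to 4.38). Both had their lowest value in the differentiated library. Gpi1, the isomerase between these steps, followed with 26.7 in TSC against 9.22 in differentiated TSC, 2.90-fold lower (1.95 to 4.45). Hk1, the other hexokinase, went the opposite way within 2-fold, at 33.2 CPM in TSC against 45.8 in differentiated TSC (1.38-fold, 1.10 to 1.72), and was 3.28-fold higher (2.25 to 4.91) than in pTSC.

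Among the enzymes from aldolase to lactate dehydrogenase, ratios to TSC and to pTSC were unlike. Tpi1, which interconverts the 2 triose phosphates, had 679 CPM in TSC and 518 in differentiated TSC, 1.31-fold lower than TSC but 1.70-fold higher (1.56 to 1.86) than pTSC. Gapdh had 15.2 against 13.8, and Ldhb, the heart-type lactate dehydrogenase subunit, 11.1 against 12.9, while against pTSC they were 2.41-fold (1.30 to 4.75) and 3.93-fold higher (1.82 to 9.70). Aldoa, which cleaves fructose bisphosphate, was 1.56-fold lower than in TSC (1.05 to 2.36) on 36 against 93 UMIs and 2.25-fold higher than in pTSC (1.14 to 4.74). The enolase Eno1 was 1.60-fold lower than in TSC (0.897 to 2.98) on 17 against 45 UMIs and 3.22-fold lower than in pTSC (1.79 to 6.05). None of these reached 2-fold against TSC. Gapdh, Ldhb and Aldoa were counted far less in single cells than in bulk, as given below. Pgk1, Pkm and Ldha met the 2-fold rule on 1 against 11, 1 against 9 and 3 against 10 UMIs, and their intervals all include equal levels. The mutase Pgam1 (29 UMIs in TSC, 14 in differentiated TSC, 20 in pTSC and 17 in blastoid pTSC), the platelet-type phosphofructokinase Pfkp (20, 7, 11 and 18) and the brain-type aldolase Aldoc (10, 7, 0 and 2) were sparse too. Between differentiated TSC and TSC all 3 stayed within 2-fold, with intervals that include equal levels. Against pTSC, Pfkp was 2.10-fold lower in differentiated TSC (0.743 to 6.38), an interval that includes equal levels. Aldoc, with 0 UMIs in pTSC against 10 in TSC, was at least 1.01-fold lower in pTSC by its counting interval.

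Among oxygen-sensing genes and HIF targets, Egln1, the main oxygen-sensing hydroxylase, was 2.26-fold lower (1.91 to 2.69), at 52.8 against 119 CPM. Higd1a, a hypoxia-induced protein of the inner mitochondrial membrane, was 2.62-fold lower (2.20 to 3.15). Pdk1, a pyruvate dehydrogenase kinase, was 2.08-fold lower (1.21 to 3.74), and P4ha1, a collagen prolyl hydroxylase subunit, 2.42-fold lower (1.09 to 6.07). Hif1a itself was 3.90-fold higher (2.03 to 7.89) on 33 against 14 UMIs, and Pfkfb3, which makes the activator of phosphofructokinase, met the rule for higher on 9 against 7, with an interval that includes equal levels (0.705 to 6.73).

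Other well counted targets stayed within 2-fold of TSC. Bnip3, a mitophagy receptor, had 275 CPM in differentiated TSC against 263 in TSC, a ratio of 1.05 (0.961 to 1.14), but was 2.5-fold higher (2.18 to 2.88) than in pTSC, where its level was lowest. Ddit4, an inhibitor of mTORC1, had 201 against 221, and Pdk3, another pyruvate dehydrogenase kinase, 59.9 against 46.8. Egln3 was 1.74-fold lower, within the 2-fold rule. Pdk3 and Pgk1 lie on the X chromosome, and the part of the difference in Xist between these libraries in their values was not tested. Genes known as HIF targets thus stood at different ratios in the same pair of libraries.

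With the pTSC library as the undifferentiated one, 4 of 22 members were lower and 6 higher, where 22.5% and 20.5% of all genes were. The 6 higher were Hk1, Gapdh, Ldhb, Aldoa, Bnip3 and Pfkfb3, the last on 9 against 1 UMIs (6.74-fold, 0.934 to 295), and none of these but Pfkfb3 was 2-fold higher against TSC. The 4 lower were Hk2, Gpi1, Eno1 and Pfkp. Hk2 (2.66-fold) and Gpi1 (6.28-fold) were lower against both, while Pfkl (1.73-fold), Egln1 (1.66-fold) and Higd1a (1.66-fold) fell short of 2-fold. Hif1a had a ratio of 1.30 (0.718 to 2.42), so its higher value depended on the TSC library.

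**Figure D2:**
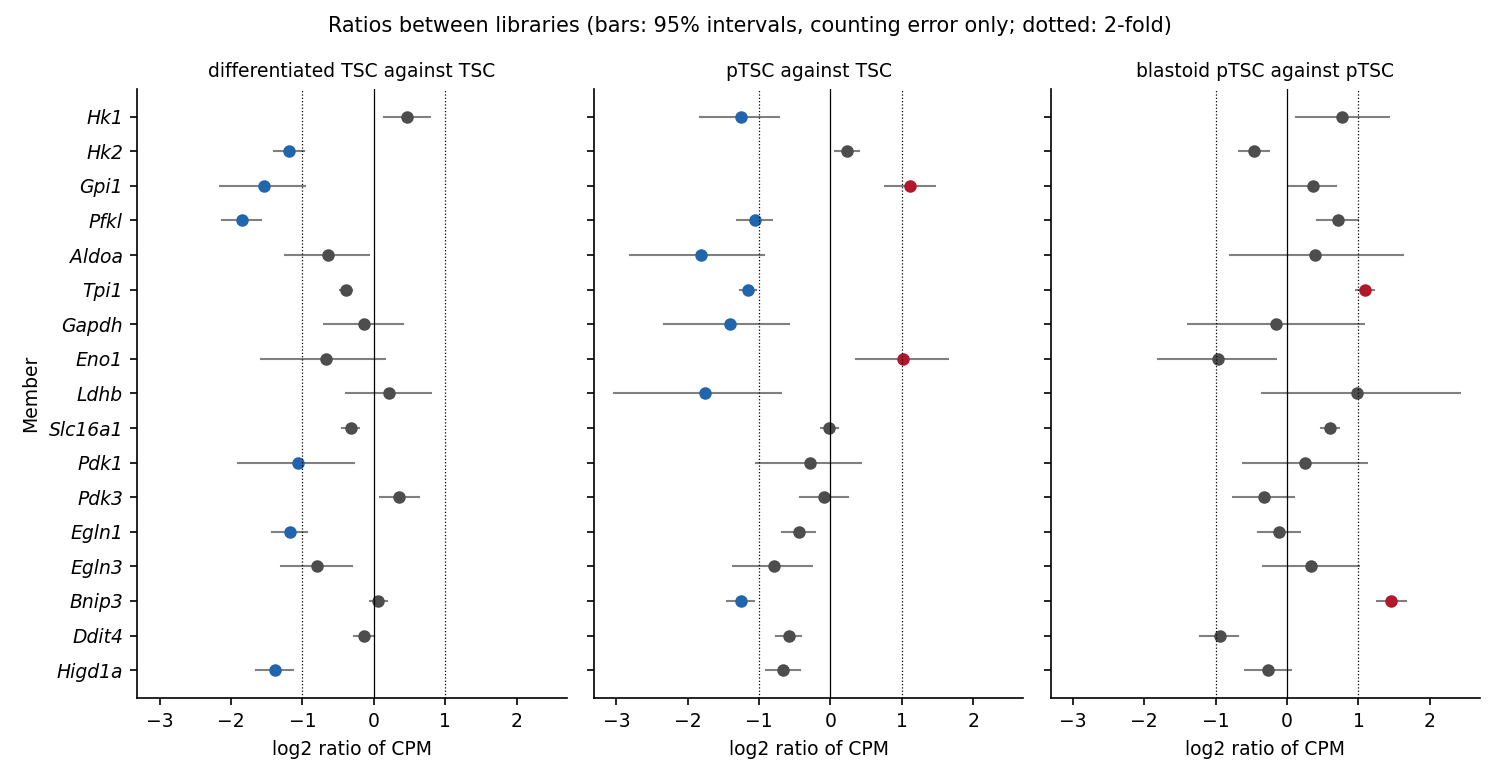
Log2 ratio of CPM for the members with 100 or more UMIs in 3 comparisons of single-cell libraries, with 95% intervals for counting error and dotted lines at 2-fold. Blue points are at least 2-fold lower and red points at least 2-fold higher. Pfkl has the lowest ratio against TSC in differentiated cells, and Bnip3 and Tpi1 are low in pTSC against TSC and high in blastoid pTSC against pTSC.

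Newly derived pTSCs in LT21 medium were compared with TSCs in Tx medium. Of 25 members measured, 8 were lower and 3 higher, beside 13.9% and 17.6% of all genes. The median log2 ratio was -0.59 for the members and -0.04 for all 12070 genes.

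Tpi1 had 304 CPM in pTSC against 679 in TSC, 2.23-fold lower (2.06 to 2.42). Bnip3 had 110 against 263, 2.39-fold lower (2.10 to 2.74). The pTSC library had the lowest value of all 4 for both genes. Pfkl was 2.09-fold lower (1.76 to 2.48) and Hk1 2.38-fold lower (1.64 to 3.55).

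Aldoa was 3.51-fold lower (1.91 to 7.03) on 12 against 93 UMIs. Ldhb was 3.39-fold lower (1.62 to 8.22), and Gapdh 2.65-fold lower (1.49 to 5.06). Pkm, with 1 against 9 UMIs, met the rule with an interval that includes equal levels. Gpi1 was 2.16-fold higher (1.70 to 2.75), at 57.8 against 26.7 CPM. Eno1 was 2.01-fold higher (1.29 to 3.15) and Hif1a 3.0-fold higher (1.43 to 6.47). Hk2 (1.17-fold) and Slc16a1, which carries lactate across the membrane as MCT1 (0.988-fold), were close to their TSC levels.

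In pTSCs taken from blastoids, Bnip3 and Tpi1 were higher than in cultured pTSCs. Of 22 members, 2 were at least 2-fold higher and 0 lower, where 13.4% and 9.42% of all genes were. The median log2 ratio was 0.29, against 0.07 for all 11343 genes. Both counts are near or under those shares.

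Bnip3 had 303 CPM in blastoid cells against 110 in culture, 2.75-fold higher (2.39 to 3.18), and Tpi1 had 649 against 304, 2.13-fold higher (1.95 to 2.33). These blastoid values were near the 263 and 679 of the TSC library. Pfkl (1.63-fold, 1.34 to 1.99), Slc16a1 (1.52-fold, 1.39 to 1.66) and Gpi1 (1.28-fold, 1.02 to 1.62) were higher within 2-fold, with intervals above 1. The 10 cells with the most Slc16a1 UMIs held 26.9% of them in the blastoid library and 16.1% in the pTSC library. The part of such cells in the ratio was not tested. The pTSC line of the cultured library is not named in the labels, so line and blastoid culture cannot be told apart.

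Ddit4 went the other way. It had 221 CPM in TSC, 201 in differentiated TSC, 147 in pTSC and 76.4 in blastoid pTSC, 1.93-fold lower (1.61 to 2.32) in blastoid cells than in pTSC. The blastoid library was the lowest of the 4. Eno1 was 1.95-fold lower (1.12 to 3.51). Both passed 2-fold when the sums were scaled by TMM or when every cell was given the same weight, which raised the count of lower members from 0 to 2. Hk2 had a ratio of 0.727 (0.628 to 0.842), and Egln1, Egln3 and Higd1a had intervals that include 1.

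The bulk comparison asked which members differ between TSCs sorted by CDX2, a transcription factor that maintains the trophectoderm. Of 15 members tested with edgeR's quasi-likelihood test, 1 was lower in CDX2-high cells and 0 were higher at a Benjamini-Hochberg adjusted p under 0.05, where 2.79% and 3.09% of 3006 genes were and 5.89% passed in either direction. At an unadjusted p under 0.05 there were 4 members, beside 19.1% of all genes tested, and DESeq2 called 0. The median log2 fold change of the members was -0.08, against -0.01 for all genes. In bulk RNA, fewer cells of a type and less RNA per cell cannot be told apart. Sums over marker lists of other cells differed between the groups, each resting mostly on a single gene. The 7 fibroblast markers, of which 1 or 2 were detected per library, summed to 267 to 287 CPM in CDX2-high and 108 to 170 in CDX2-low cells. Nearly all of it was Vim, with Col3a1 at 0 throughout and Col1a1 at most 3.68. The 6 primitive endoderm markers summed to 19.4 to 33.1 and 51.9 to 60.0 CPM, mostly Dab2, with Sox17 at 0. Some trophoblast markers differed too. Krt8 stood at 190 to 246 CPM in CDX2-high and 655 to 857 in CDX2-low cells, and Elf5 at 191 to 209 against 94.3 to 137. Gata3 and Tead4 overlapped between the groups. The part of these marker differences in the results was not tested.

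Ddit4 was the member that passed. Its level was 108, 132 and 110 CPM in CDX2-high cells against 206, 201 and 282 in CDX2-low cells. Every CDX2-low library was above every CDX2-high one. The means were 117 ± 13.4 and 230 ± 45.0 (SD, n = 3 each), with a log2 fold change of -0.98 (SE 0.27, edgeR adjusted p = 0.0278). The call was lost with DESeq2 (adjusted p = 0.210), with no filter on low counts (edgeR, 0.103), after thinning to the smallest total (edgeR, 0.114), and without CDX2-high library 37 (edgeR, 0.111), 38 (0.0616) or 39 (0.134) or CDX2-low library 42 (0.144). Its direction held in each of these.

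**Figure D3:**
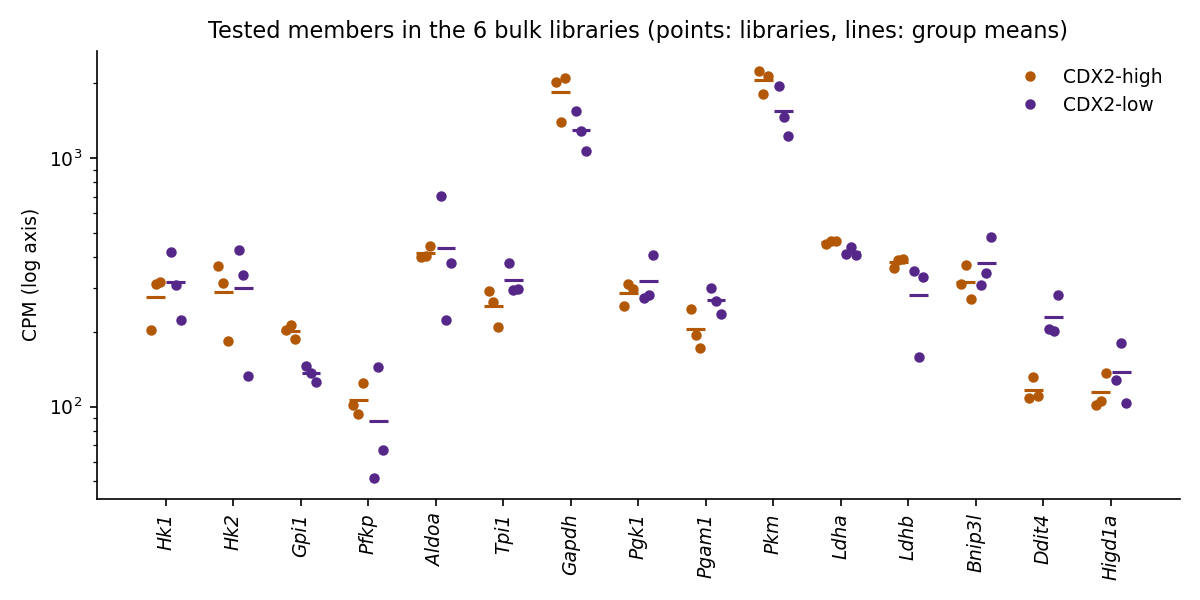
CPM (log axis) of the 15 tested members in each of the 6 bulk libraries, 3 CDX2-high and 3 CDX2-low, with lines at group means. Ddit4 lies at 108 to 132 in CDX2-high and 201 to 282 in CDX2-low cells, and 5 of the 15 members show no overlap between groups.

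The glycolytic enzymes leaned in both directions without passing. Gpi1 had 203, 214 and 187 CPM in CDX2-high cells against 146, 137 and 126 (log2 fold change 0.55, edgeR adjusted p = 0.253). Gapdh had 2031, 1400 and 2099 against 1543, 1288 and 1067 (0.49, edgeR adjusted p = 0.144), and Pkm 2240, 1820 and 2132 against 1954, 1461 and 1230 (0.41, edgeR adjusted p = 0.216). The groups were apart for Gpi1 and overlapped for Gapdh and Pkm. Tpi1 was on the other side, with 292, 264 and 210 against 377, 295 and 296 (-0.36, edgeR adjusted p = 0.428).

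Groups did not overlap for 5 of the 15 members (Gpi1, Ldha and Ldhb above, Tpi1 and Ddit4 below), beside 22.7% of all genes tested. Ldha, the muscle-type subunit of lactate dehydrogenase, had 451, 463 and 463 against 411, 439 and 407, a log2 fold change of 0.12. The other 8 members had log2 fold changes from -0.42 (Pgam1) to 0.25 (Pfkp). The plot of bulk values shows that Hk2, Aldoa and Pfkp varied more among the CDX2-low libraries than between groups.

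The 15 members with at least 10 counts that were not tested held 10 (Eno2 and Pdk3) to 68 counts (Slc16a1) over the 6 libraries. In the edgeR fit with no filter on low counts none of them passed at an adjusted p under 0.05. Pfkm and Pdk1 had an unadjusted p under 0.05, as did 1222 of the 12598 genes in that fit. Groups did not overlap for 4 of the 15, beside 14.8% of the 5351 genes that were not tested and had at least 10 counts; the 4 are named here after their values were seen. Pfkm, the muscle-type phosphofructokinase, lay higher in CDX2-high libraries, with 6, 6 and 12 counts against 0, 2 and 2 and a log2 fold change of 1.79 (edgeR adjusted p = 0.301). Pdk1 had 8, 16 and 12 counts against 3, 1 and 5 and a log2 fold change of 1.24 (edgeR adjusted p = 0.399). Aldoc and Eno2 lay lower per CPM in the CDX2-high libraries, on 47 and 10 counts in all. The other 11 overlapped between the groups, among them Bnip3 with 51 counts and Hif1a with 44.

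The single-cell and bulk tables counted the members very differently, which bears on which enzymes can be judged. Pkm had 1998 counts in the 6 bulk libraries and 15 UMIs in the 4 single-cell libraries, Gapdh 1754 and 153, Ldha 480 and 24, and Bnip3l 368 and 2. Slc16a1 went the opposite way, with 68 bulk counts and 4633 UMIs. The log2 ratio of the TSC library over the CDX2-high mean, both as CPM, was -10.75 to -4.59 for the 6 members after which the GENCODE annotation of GRCm38 names a pseudogene (Aldoa, Gapdh, Pgk1, Pgam1, Ldha and Bnip3l). It was 0.92 to 3.33 for the 4 members with 1 annotated transcript (Ddit4, Slc16a1, Egln1 and Egln3) and -10.27 to 2.73 for 20 others. The enolase reads were named Gm5506, a near-identical copy, in bulk (43 counts, beside 2 of Eno1) and Eno1 in single cells (123 UMIs, beside 0 of Gm5506). The 20 others had a median log2 ratio of -2.24. Among them Pkm stood at -10.27, Ldhb at -5.10, Hif1a at -4.15, Hk1 at -3.06 and Gpi1 at -2.91, but Tpi1 at 1.41 and Bnip3 at 2.73. The values of genes with such copies are uncertain in both tables. Single-cell ratios of other members that stand far below bulk are uncertain too, and the cause of the difference was not tested.

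Spread between cells was described after each cell was thinned to 2000 UMIs. Tpi1 was detected in 67.6% of TSC, 59.1% of differentiated, 41.5% of pTSC and 66.1% of blastoid cells. For Bnip3 the shares were 35.5%, 36.5%, 15.4% and 39.7%, and for Ddit4 29.6%, 25.8%, 25.8% and 13.6%. Exact Clopper-Pearson intervals reached from 35.8% to 47.3% for Tpi1 and from 11.5% to 20.0% for Bnip3 in pTSC, below the intervals of the other 3 libraries. These intervals cover the drawing of cells within 1 library and not the spread between cultures, lines or plates. Without thinning the shares were higher, from 75.9% to 94.7% for Tpi1. The summed count of all members was 4 UMIs per 2000 in the median TSC and blastoid cell and 3 in the median differentiated and pTSC cell.

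**Figure D4:**
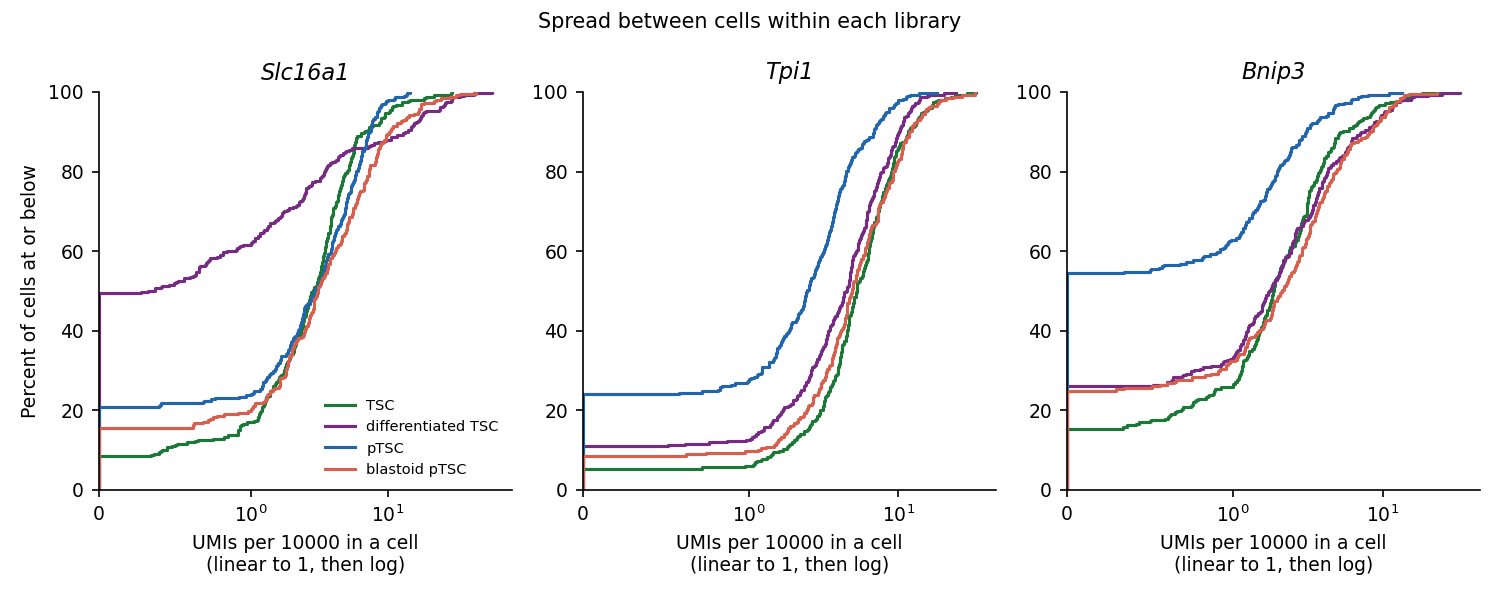
Cumulative percent of cells by UMIs per 10000 of Slc16a1, Tpi1 and Bnip3 in each of the 4 single-cell libraries (axis linear to 1, then log). The Slc16a1 curve of differentiated cells starts highest, with a median of 0.348, and ends among the highest values, while the Tpi1 and Bnip3 curves of the pTSC library lie to the left of the others.

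Among the members in thinned differentiated cells, Slc16a1 had the highest ratio of variance to mean, followed by Bnip3 (2.08). Sparser members, among them Egln1 (36.6%), had a larger share of their unthinned UMIs in the 10 richest cells than Slc16a1 (29.9%). The library level of Slc16a1 was 266 CPM in differentiated TSC and 334 in TSC (1.25-fold lower). The share of cells with a Slc16a1 UMI after thinning was 25.8% (21.1 to 31.0) against 45.9% (40.3 to 51.6). Without thinning it was 50.6% against 91.5%. The median cell held 0.348 per 10000 UMIs in the differentiated library and 2.85 in the TSC library, while the 90th percentile was 13.5 against 6.69. The variance of the thinned counts was 3.30 times their mean in differentiated cells, 1.85 in TSC, 1.20 in pTSC and 2.03 in blastoid cells. With an upper quartile of 2.52, most differentiated cells lay below the median TSC, while the top of their distribution lay above that of TSC, as the cumulative plot shows. The cells came from 1 library and are not replicates.

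The genes whose level per cell ranked most like Slc16a1 over the 318 differentiated cells, among 6287 genes seen in at least 10% of them, were 4932442L08Rik (Spearman's rho 0.49), Serpinb9e (0.46), RP23-38L11.1 (0.44) and Serpinb9d (0.44). The lowest rho of any gene was -0.42. These cells share a library and differ in depth, so the values are descriptions. Serpinb9e belongs to a serpin cluster expressed in placental trophoblast. Because Serpinb9e was picked for its likeness to Slc16a1 in these cells, splitting them by it restates that choice: Slc16a1 stood at 758 CPM in the 73 differentiated cells with a Serpinb9e UMI, against 111 in the other 245, with median depths of 9682 and 8297 UMIs. Hk2 had the opposite order, at 29.4 against 82.5, and Tpi1 was at 615 against 487. In the blastoid library 14 cells with a Serpinb9e UMI held 1506 CPM of Slc16a1, against 411 in the other 243 cells, at median depths of 10988 and 8152.

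The other genes of the pathway were read from 6 fixed lists. Their counts stand beside the shares of all genes at least 2-fold higher and lower, 17.5% and 18.0% in differentiated TSC against TSC, 17.6% and 13.9% in pTSC and 13.4% and 9.42% in blastoid pTSC, and beside 3.09% and 2.79% of genes that passed higher and lower in bulk. Among glucose and lactate carriers, 3 of 5 tested in bulk were lower in CDX2-high cells: Slc2a1 (log2 fold change -0.90), Slc2a3 (-0.91) and Txnip (-2.20), with edgeR adjusted p = 0.00937, 0.0158 and 0.000357. Slc2a1 and Slc2a3 import glucose, and Txnip restrains that import. Txnip kept its call in all 10 alternative bulk analyses. Slc2a1 lost it without CDX2-high library 37 (edgeR adjusted p = 0.0920) or 39 (0.0592), and Slc2a3 with DESeq2 (adjusted p = 0.0568) and without library 37 (edgeR, 0.0691), 39 (0.143) or CDX2-low library 42 (0.0668). In differentiated cells 4 of 6 were lower than in TSC, Slc2a1 2.80-fold (2.46 to 3.21) and Slc2a3 3.42-fold (2.43 to 4.94), and none higher. Against pTSC Slc2a1 was 1.69-fold and Slc2a3 3.15-fold lower. In pTSC 2 of 6 were lower than in TSC. Slc16a3, with 0 against 22 UMIs, was at least 2.48-fold lower by its counting interval. Taking 3 counts over the library as the limit of a 0 gave 3.32-fold. Slc2a10 had 2 against 20 UMIs (4.52-fold lower, 1.10 to 39.9). In blastoid cells none of 3 passed 2-fold.

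In the pentose phosphate pathway, which branches from glucose 6-phosphate, both non-oxidative enzymes that passed in bulk moved in opposite directions. Tkt rose (0.83, edgeR adjusted p = 0.0416) and Taldo1 fell (-0.88, edgeR adjusted p = 0.0182) among 4 tested. Tkt lost its call without CDX2-high library 37 (edgeR adjusted p = 0.117), 38 (0.0802) or 39 (0.0918) or CDX2-low library 42 (0.112). Taldo1 lost it without the same libraries (edgeR, 0.0920, 0.0957, 0.0655 and 0.0554), with DESeq2 (adjusted p = 0.106) and with no filter on low counts (edgeR, 0.0757). Tkt was 4.82-fold lower (4.34 to 5.35) in differentiated cells than in TSC and 2.5-fold lower than in pTSC. In differentiated cells 2 of 8 were lower than in TSC. In blastoid cells 2 of 9 were lower, Prps1 2.38-fold and Tktl1 2.99-fold.

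Other enzymes of glycolysis, gluconeogenesis and glycogen were lower in 7 of 13 cases in differentiated cells and higher in 0. Pck2, which makes phosphoenolpyruvate in mitochondria, was 4.60-fold lower (3.86 to 5.51) than in TSC and 2.84-fold lower than in pTSC. The glycogen phosphorylase Pygl was 4.12-fold lower (2.62 to 6.77) than in TSC but had a ratio of 1.03 (0.517 to 2.10) to pTSC. Fbp2, a fructose bisphosphatase, had 1 against 67 UMIs in TSC (40.5-fold lower, 7.02 to 1622) and was 30.7-fold lower than in pTSC. In pTSC 4 of 13 were lower and 1 higher, with Tigar 2.76-fold and Gys1 2.15-fold lower. In blastoid cells 2 of 15 were lower and 3 higher, with Pck2 4.44-fold lower (3.39 to 5.90) and Fbp2 4.03-fold and Pygl 3.95-fold higher. None of 3 tested in bulk passed, nor did any of 4 genes of pyruvate entry into mitochondria.

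Among HIF subunits and regulators, Epas1, which encodes HIF2A, had 143 CPM in TSC, 52.8 in differentiated TSC, 27.5 in pTSC and 90.7 in blastoid pTSC. It was lowest in pTSC, as Bnip3 and Tpi1 were. Its ratio was 5.21-fold lower in pTSC than in TSC and 3.30-fold higher (2.49 to 4.41) in blastoid cells than in pTSC. In all, 2 of 11 were higher and 2 lower in differentiated cells, with Cited2, a competitor for the HIF coactivator, 2.81-fold higher (2.66 to 2.98) and Vhl, the ligase subunit that removes HIF1A, 2.13-fold higher. Against pTSC these were 4.23-fold and 3.01-fold higher, while Epas1, 2.71-fold lower than in TSC, was 1.92-fold higher than in pTSC (1.44 to 2.59). In pTSC 1 was higher and 3 lower, and in blastoid cells 1 was higher and 0 lower. In bulk, Cited2 fell (-0.86, edgeR adjusted p = 0.0432), 1 of 2 tested. The call was lost in 8 of 10 alternatives, with DESeq2 (adjusted p = 0.294), with no filter (edgeR, 0.184), after thinning (0.172), and without CDX2-high library 37 (0.111), 38 (0.171) or 39 (0.145) or CDX2-low library 40 (0.0573) or 42 (0.190).

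Of the other HIF and hypoxia targets, 9 of 29 were higher and 5 lower in differentiated cells, 5 and 3 of 26 in pTSC, and 6 and 5 of 25 in blastoid cells, beside shares over all genes of 17.5% and 18.0%, 17.6% and 13.9%, and 13.4% and 9.42%. In differentiated cells some were sparse, with intervals that include equal levels. These were Kdm4c (8 against 5 UMIs) and Ccng2 (8 against 4) among the higher, and Plod2 (7 against 27), Rbpj (3 against 16) and Slc16a3 (6 against 22) among the lower. The other lower genes were Stc2, 9.06-fold lower (6.33 to 13.4) on 32 against 480 UMIs, and Slc2a1, 2.80-fold lower. Ndrg1, a hypoxia-induced protein, had 342 CPM in TSC, 84.9 in pTSC and 751 in blastoid pTSC, 8.85-fold higher (7.66 to 10.3) in blastoid cells than in pTSC. Bhlhe40, a transcriptional repressor, was 6.77-fold higher in differentiated cells and 7.01-fold higher in pTSC than in TSC, and 3.19-fold lower in blastoid cells than in pTSC. Against pTSC its ratio in differentiated cells was 0.967 (0.874 to 1.07), so the higher value there rests on the TSC library. Hmox1, which degrades haem, was 2.65-fold higher (2.52 to 2.79) in differentiated cells than in TSC and 2.64-fold higher than in pTSC. In bulk 2 of 16 passed, both lower in CDX2-high cells: Slc2a1, and Fos (-0.88, edgeR adjusted p = 0.0284). Fos lost its call with DESeq2 (adjusted p = 0.105), after thinning (edgeR, 0.0738), and without CDX2-high library 37 (0.103), 38 (0.119) or 39 (0.113) or CDX2-low library 41 (0.234).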

How the data were processed

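CEL-Seq2 libraries from 4 plates of single cells and 6 bulk samples were used. The authors deposited the bulk data as raw counts of each gene in each library. The authors deposited each plate as estimated counts of transcripts by gene and well. All values are whole and were used as they stand. Per the submitters' processing notes, STAR 2.5.3a was among the tools. Build, annotation and counting program were not given in the sources used here.

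Members were matched by symbol. The members and the gene lists were chosen with earlier results of these data known. All 34 members are accounted for. From other lists, genes that passed in bulk are named. Per single-cell comparison, so are up to 3 per list with the most UMIs among those at least 2-fold different. Some hypoxia targets outside this rule are named too, most of them sparse.

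For bulk, R 4.3.3 and edgeR 4.0.16 were used on the counts (filterByExpr, TMM, glmQLFit, glmQLFTest, no covariates), with Benjamini-Hochberg adjustment over all genes tested. On simulated counts (3044 genes), 56 of 92 genes changed 2-fold and 90 of 91 changed 4-fold were recovered, and 8 of 154 calls were false. Every simulated gene had the same dispersion (spread beyond counting error), and changed genes were drawn from those that passed the filter. Real genes vary in dispersion, so these rates need not hold for them. DESeq2 1.42.0, other size factors, no filter, thinning and leaving out each library were alternatives.

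Counts were summed per library over wells that held 2000 UMIs or more besides mitochondrial ones (66, 66, 85 and 127 wells were dropped from differentiated TSC, TSC, pTSC and blastoid pTSC), and genes with at least 10 UMIs over both libraries were measured. On 2 libraries of 10537 genes drawn from the TSC sums, 95.6% of the intervals held the true ratio. Such draws hold no unevenness between cells or cultures, so they check the intervals for counting error alone. Doublets were not called, since wells were sorted. Leaving out the 5% of wells richest in UMIs was an alternative. Python 3.11.15, pandas 2.3.3, numpy 2.4.6 and scipy 1.17.1 were used. PCR error, uneven sharing of UMIs between cells and differences between cultures are outside the intervals.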

Additional observations from a re-analysis of the deposited data

How the results depend on the processing

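In bulk, 177 genes passed with edgeR's quasi-likelihood test, 75 with DESeq2, and 81 to 189 when 1 library was left out. The count of members lower in CDX2-high cells went from 1 to 0 with DESeq2, with no filter on low counts and after thinning to the smallest total, and was 0 to 1 when 1 library was left out. No member passed higher under any of these. Of 220 single-gene bulk values under the alternatives, 172 kept direction and call, 37 lost the call and 11 changed sign. Small log2 fold changes changed sign without passing. With no filter, Hk2 stood at 0.0099 and Aldoa at 0.044, and after thinning Hk2 at 0.0075 and Higd1a at 0.051. Leaving out 1 library gave -0.35 to 0.076 for Hk1, -0.43 to 0.25 for Hk2, -0.37 to 0.46 for Aldoa and -0.26 to 0.070 for Pgk1. No paired analysis was possible because the bulk groups share no replicate number and each single-cell group has 1 library.

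Against TSC, the count of members higher in differentiated cells went from 2 to 1 without the 5% of wells with the most UMIs, to 0 with at least 50 UMIs per member, and to 6 with the pTSC library as the undifferentiated one. The count lower went from 10 to 6 with at least 50 UMIs and to 4 with the pTSC library. With that library 3 other genes changed sign, to log2 ratios of 0.042 for Pygl, 0.94 for Epas1 and -0.049 for Bhlhe40. In blastoid cells against pTSC the count lower went from 0 to 1 without the top wells, 2 with TMM scaling and 2 with equal weight for each cell. Of the log2 ratios of single genes, 206 of 236 alternatives against TSC in differentiated cells, 181 of 182 in pTSC and 159 of 159 in blastoid cells stayed within the counting interval. TMM moved the median of all genes by -0.06, 0.03 and -0.08. The match share of member promoters was 79.6% in 300 bases too. Over the same 300 bases it rose to 63.1% for promoters of genes measured in the TSC libraries and to 43.8% for all promoters. Shares of cells without thinning moved for all 32 values, since they rise with depth.

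Depth limits bulk, where 15 of 34 members were tested. A single library per single-cell group leaves culture, line, plate and condition together, and these cannot be told apart.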

Other observations

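The ratio of Ddit4 led to a list of 16 genes of the ATF4 and amino acid response, which was chosen after the values were seen and gets no test. ATF4 is a transcription factor that raises amino acid import and synthesis under stress, and Ddit4 is known as a target of it as well as of HIF. In blastoid pTSCs against cultured pTSCs, 3 of 12 measured genes were at least 2-fold lower and 0 higher, beside 9.42% and 13.4% of all genes, with a median log2 ratio of -0.62 against 0.07 for all genes. Slc7a11, the cystine importer, had 7.77 against 66.9 CPM, 8.60-fold lower (5.28 to 14.9). Chac1, which degrades glutathione, had 23.7 against 161, 6.79-fold lower (5.11 to 9.17), and Mthfd2, a mitochondrial folate enzyme, was 2.78-fold lower (2.48 to 3.11). Sesn2 (1.76-fold) and Ddit3 (1.60-fold) were higher within 2-fold. In pTSC against TSC 1 of 13 was lower and 1 higher, beside 13.9% and 17.6% of all genes (median 0.04), and Slc7a11 was 3.22-fold higher. In differentiated TSC against TSC 5 of 14 were lower and 1 higher, beside 18.0% and 17.5% (median -0.72), with Chac1 16.4-fold lower (11.5 to 24.3). In bulk 1 of 10 tested passed, beside 5.89% of all genes tested in either direction and 2.79% lower. It was Trib3, a pseudokinase of the same response, at 118 against 258 CPM in CDX2-high and CDX2-low cells (log2 fold change -1.15, edgeR adjusted p = 0.0110). The call was lost with DESeq2 (adjusted p = 0.0834) and without CDX2-high library 39 (edgeR, 0.114). Of the 10 tested, 5 had log2 fold changes above 0 and 5 below, with a median of -0.01.

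In the TSC library Slc16a1 was also higher in cells with a Serpinb9e UMI, as in the differentiated and blastoid libraries, with 647 CPM in 13 cells with a Serpinb9e UMI against 315 in 305 without, but the 13 cells were deeper (median 28705 against 14906 UMIs). Too few TSC cells held a Serpinb9e UMI to say more.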
